A study of Mus musculus with 9 samples.

Results

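The genes described here encode integrin and laminin subunits measured in mouse liver. They were chosen by symbol alone, as genes named as an integrin alpha chain (Itga), an integrin beta chain (Itgb) or a laminin alpha, beta or gamma chain (Lama, Lamb, Lamc) among the 24008 genes with counts. The 36 genes described comprise 18 for integrin alpha chains, 8 for integrin beta chains and 10 for laminin chains. Enough reads were counted to test 30 of them, namely 20 integrin subunits and the 10 laminin subunits.

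Integrins are receptors of the cell surface, each built from an alpha chain and a beta chain that reach the membrane only as a pair. Some pairs carry white blood cells onto other cells, and others hold cells to collagens, laminins or proteins with the Arg-Gly-Asp motif. Laminins are the ligands of the basement membrane and are themselves trimers of an alpha, a beta and a gamma chain. In the liver, bile ducts and larger vessels rest on a laminin-rich basement membrane, whereas the sinusoids hold little of it, and both families are studied for their place in scarring and in the formation of new ductules.

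Liver RNA came from 9 mice on a C57BL/6J background, 3 per group and 1 library per mouse. All were fed a high fat and high carbohydrate diet that induces nonalcoholic steatohepatitis (NASH). The paper names only males in one place and both sexes in another, and the sex of the mice sequenced is not stated. Flox mice, which the labels call WT, carried the loxP-flanked Irf4 allele, and F4MKO mice lacked Irf4 in skeletal muscle through Myl-Cre, a recombinase driven from a myosin light chain gene. F4MKO+FSTL1 mice were F4MKO mice given an adeno-associated virus of serotype 8 in the gastrocnemius muscle, with FSTL1, a protein secreted by muscle, under the muscle creatine kinase promoter. According to the methods, Flox and F4MKO mice received a GFP virus, which the labels do not name. The mice were 8 weeks old at the start, the diet is given as 24 weeks in one place and 12 weeks in another, and livers were taken 4 weeks after the virus. No group carried the FSTL1 virus without the deletion. The comparisons asked how liver transcripts differed with the muscle deletion and, within mice that had it, with FSTL1 given back to muscle.

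The 9 libraries held 20656976 to 24322984 counted reads each. Albumin (Alb) alone took 1063714 to 1799972 of them. Irf4, deleted here in muscle, had 101 to 132 counts in the Flox livers, 120 to 130 in F4MKO, and 10, 92 and 116 in F4MKO+FSTL1, so that F4MKO+FSTL1 replicate 1 stood apart for this gene. Fstl1 had 6.15 to 7.62 CPM in Flox livers, 9.80 to 16.1 in F4MKO and 3.22 to 5.33 in F4MKO+FSTL1, and a check of the deletion or the virus in muscle was not possible from liver. Levels are CPM, the counts of a gene per 1000000 reads of a library after scaling of library sizes, and those of different genes are compared only as CPM per kb of exon. A gene is called when its adjusted p is under 0.05 and its fold change is above 1.5 in edgeR's quasi-likelihood test across 14379 genes. F4MKO replicate 1 was the highest of its group for 21 of the 30 tested subunits, compared with 36.2% of all tested genes. RNA was taken from whole liver, where fewer cells of a type and less RNA per cell cannot be told apart.

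The subunits differed widely in abundance in Flox livers. Itgb1, the beta chain shared by most matrix receptors, was the highest at 40.3 ± 1.45 CPM per kb (SD, n = 3), followed by Itgb5, a partner of the alphaV chain, at 24.2 ± 1.65. Itga5, the alpha chain of the fibronectin receptor, had 6.08 ± 0.732 CPM per kb and Itgb2, the shared beta chain of white blood cells, had 5.43 ± 1.41, and the libraries of these genes overlapped. Itgal, the alpha chain of the leukocyte receptor LFA-1, followed at 3.16 ± 0.556 and Lamc1, the common laminin gamma chain, at 2.45 ± 0.0803. The lowest mean was that of Itgad at 0.00631 ± 0.00548 CPM per kb, and its libraries overlapped with those of Itgb8 and Itgb6. Of the 35 pairs of neighbours in this order, 7 did not overlap between libraries and 28 did, so that the middle and the low end of the order are not resolved. The highest laminin alpha chain was Lama1 at 0.490 ± 0.126 CPM per kb, and it overlapped with Lama4, Lama5 and Lama3.

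**Figure D1:**
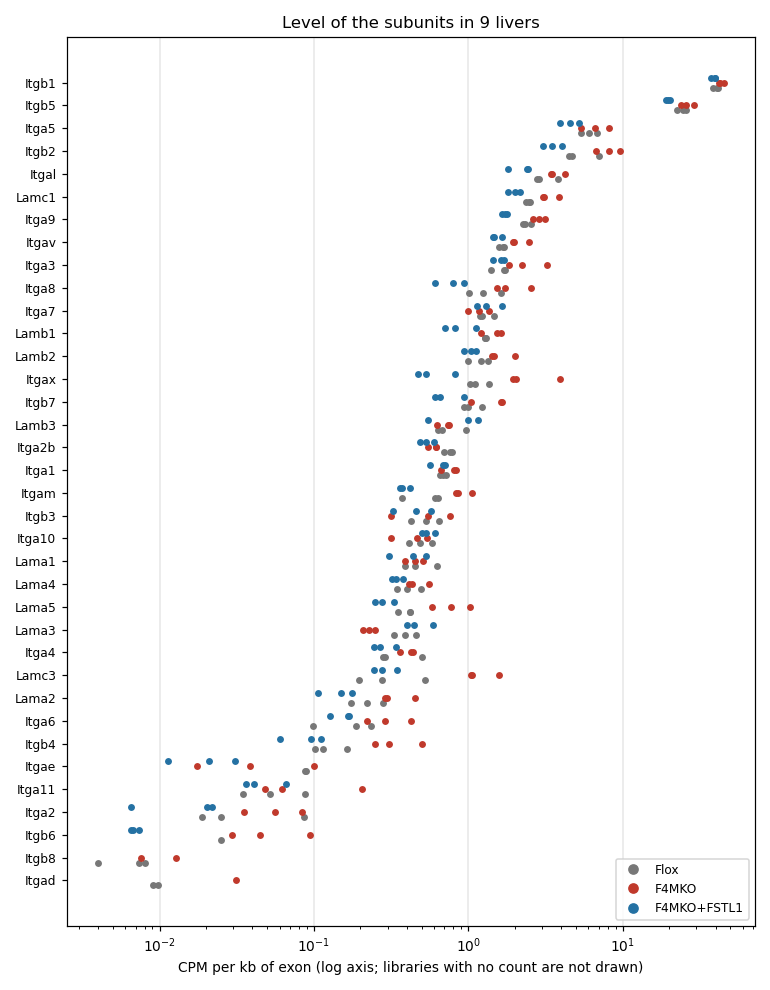
Level of each of the 36 subunits in CPM per kb of exon on a log axis, ordered by the Flox mean, with 1 point per library in grey (Flox), red (F4MKO) and blue (F4MKO+FSTL1). Itgb1 and Itgb5 stand above all others in every library, and Lamc3 shows red points apart from grey and blue.

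Lamc3, a gamma chain of few laminins, was the only one of these subunits called in F4MKO livers compared with Flox. It was called higher, which is 1 of 30 tested subunits, and 0.202% of all tested genes were called higher. No integrin subunit was called, of which 9 were higher at an unadjusted p under 0.05. None of the 30 was called lower by edgeR, where 0.0695% of all genes were called lower. At an unadjusted p under 0.05, 14 subunits were higher, beside 9.35% of all genes, and 1 was lower, beside 7.51% of all genes. The 3 F4MKO libraries all lay above the 3 Flox libraries for 12 subunits, and 11.7% of all genes did so. The median log2 fold change of the tested subunits was 0.26, with 24 above 0 and 6 below, and the median of all genes was -0.0030. DESeq2 called 2 integrin subunits, Itgax and Itgb4, and 3 laminin subunits, which adds Lama5 and Lama3, whereas without F4MKO replicate 1 or any 1 Flox replicate no subunit was called.

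In F4MKO+FSTL1 livers compared with F4MKO, 15 of the 30 tested subunits were called lower, where 11.2% of all tested genes were. They were 9 integrin subunits of 20 and 6 laminin subunits of 10. A single subunit, the laminin alpha chain Lama3, was called higher, where 3.21% of all genes were. The groups did not overlap for 22 subunits that were lower in F4MKO+FSTL1, beside 21.1% of all genes. Over the tested subunits the log2 fold change had a median of -0.63, and over all genes 0.01. Without F4MKO replicate 1, 7 integrin and 5 laminin subunits were called in either direction, in place of 9 and 7, and without F4MKO+FSTL1 replicate 1 the counts were 7 and 7. With the trend of transcript length and GC content removed from each library, 736 genes were called higher and 1396 lower in place of 461 and 1609, and 6 integrin and 4 laminin subunits were called. The calls of Itgal, Itga9, Itga3, Lamc1, Lamb1 and Lamb2 ended there, with log2 fold changes of -0.56, -0.56, -0.39, -0.54, -0.52 and -0.45. When the test asked whether a fold exceeds 1.5, 5 integrin and 2 laminin subunits were called.

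In F4MKO+FSTL1 livers compared with Flox, no subunit was called by edgeR, and 0.00695% of all genes were called in either direction. At an unadjusted p under 0.05, 11 subunits were lower, beside 9.12% of all genes, and 0 were higher, and DESeq2 called none either. The median log2 fold change of the subunits was -0.30. Each of these comparisons shares a group with another, and F4MKO serves in both of the first 2, so a library that is high in F4MKO enters both with opposite sign.

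**Figure D2:**
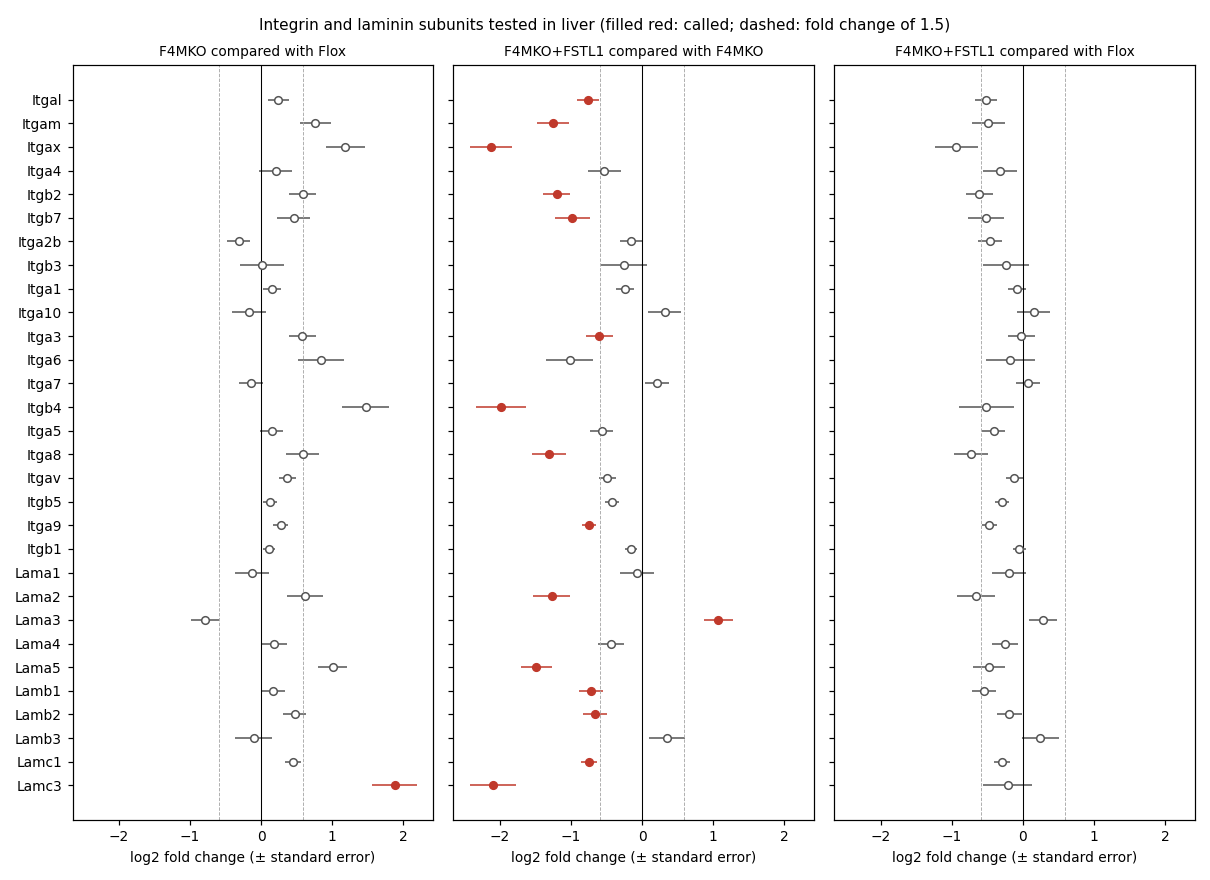
Log2 fold change with its standard error for the 30 tested subunits in the 3 comparisons, filled red where called, with dashed lines at a fold change of 1.5. Lamc3 is filled to the right in the first panel, 15 subunits are filled to the left and Lama3 to the right in the second, and none is filled in the third.

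Leukocyte integrins carry white blood cells onto vessel walls and other cells. Of 6 tested subunits, 5 were called lower in F4MKO+FSTL1 than in F4MKO, where 11.2% of all tested genes were. All 6 were lower without overlap of the groups, beside 21.1% of all genes. The largest difference was in Itgax, the CD11c chain of dendritic cells and some macrophages. Itgax had 4.90, 5.33 and 6.57 CPM in the Flox libraries, 18.9, 9.84 and 9.34 in F4MKO and 3.92, 2.26 and 2.56 in F4MKO+FSTL1. All F4MKO libraries were the highest and replicate 1 stood far above the other two of its group. The log2 fold change was -2.12 (SE 0.30, adjusted p = 0.00155) in F4MKO+FSTL1 compared with F4MKO, and 1.18 (SE 0.28, adjusted p = 0.0809) in F4MKO compared with Flox.

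Itgam, the CD11b chain of the complement receptor Mac-1, had 1.87, 3.07 and 3.20 CPM in Flox, 5.31, 4.31 and 4.19 in F4MKO and 2.10, 1.83 and 1.88 in F4MKO+FSTL1. The F4MKO libraries were again above all others, and Itgam was 1.25 lower on the log2 scale in F4MKO+FSTL1 than in F4MKO (log2 fold change -1.25, SE 0.23, adjusted p = 0.00404). Itgb2, the CD18 chain that pairs with Itgal, Itgam, Itgax and Itgad, had 13.8, 14.3 and 21.5 CPM in Flox, 29.3, 24.8 and 20.4 in F4MKO and 10.7, 9.37 and 12.4 in F4MKO+FSTL1. Flox replicate 3 lay among the F4MKO libraries for Itgb2, and every F4MKO+FSTL1 library lay under every library of the other groups. Its log2 fold change was -1.20 (SE 0.19, adjusted p = 0.00239) in F4MKO+FSTL1 compared with F4MKO.

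Itgal, whose LFA-1 binds ICAM proteins on other cells, had 18.9, 18.4 and 25.0 CPM in Flox, 28.0, 22.7 and 23.1 in F4MKO and 15.9, 11.9 and 15.8 in F4MKO+FSTL1. It was lower in F4MKO+FSTL1 than in F4MKO (log2 fold change -0.76, SE 0.16, adjusted p = 0.00696), and the Flox and F4MKO libraries overlapped. Itgb7, which pairs with the alpha4 and alphaE chains, had 3.39, 2.75 and 2.62 CPM in Flox, 4.53, 2.89 and 4.59 in F4MKO and 1.82, 1.68 and 2.61 in F4MKO+FSTL1. The log2 fold change of Itgb7 was -0.98 (SE 0.25, adjusted p = 0.0169) in F4MKO+FSTL1 compared with F4MKO. This call was lost without F4MKO replicate 1 (adjusted p = 0.0639), without F4MKO+FSTL1 replicate 1 (adjusted p = 0.0571) and without F4MKO+FSTL1 replicate 2 (adjusted p = 0.0759). Itga4, the alpha chain of VLA-4, ranged from 3.91 to 6.97 CPM in Flox, from 5.07 to 6.15 in F4MKO and from 3.41 to 4.75 in F4MKO+FSTL1 and did not pass (log2 fold change -0.53, SE 0.23, adjusted p = 0.131).

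The genes of the 4 alpha chains that pair with Itgb2 lie on chromosome 7, with Itgal at chr7:127296260-127335138 and Itgam, Itgax and Itgad side by side from chr7:128062640 to 128223816 (GRCm38). Of the summed CPM per kb of these alpha chains, Itgax made up 24% ± 0.470 in Flox, 35.2% ± 6.27 in F4MKO and 18.7% ± 3.22 in F4MKO+FSTL1 (SD, n = 3). The 3 groups did not overlap in this share. Itgal made up 64.9% ± 2.78, 52.0% ± 5.34 and 69.1% ± 3.21, and Itgam stayed between 8.73% and 13.7% in all 9 libraries. The gene model Gm49368 covers 68.7% of the exon bases of Itgam on the same strand. If shared reads were not counted for Itgam, its share is too low here and those of Itgal and Itgax too high. The alpha chains summed to 7.31 ± 1.71 CPM per kb in F4MKO and to 3.21 ± 0.514 in F4MKO+FSTL1.

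**Figure D3:**
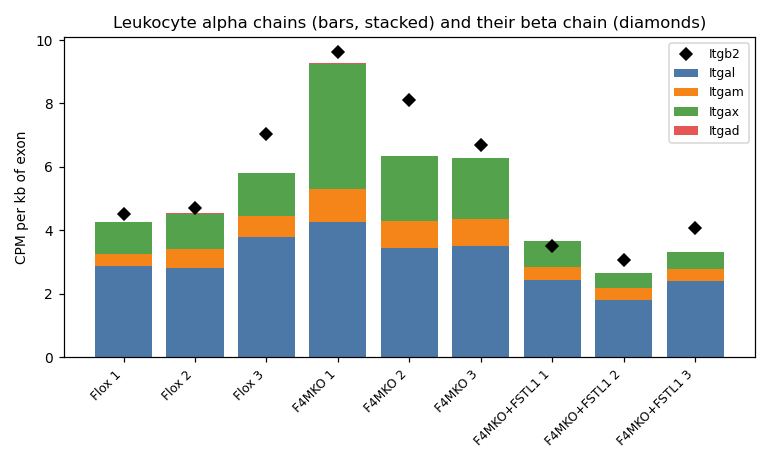
Stacked bars give the CPM per kb of Itgal, Itgam, Itgax and Itgad in each library, and diamonds give Itgb2. The green Itgax segment is tallest in the F4MKO libraries, above all in replicate 1, and Itgad is too low to be seen.

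Some markers of white blood cells were lower in F4MKO+FSTL1 than in F4MKO along with these integrins. Of 10 macrophage markers, 0 were called by edgeR in F4MKO compared with Flox. At an unadjusted p under 0.05, 2 were higher and 2 lower there. In F4MKO+FSTL1 compared with F4MKO, 6 were called lower (Trem2, Ccr2, Lyz2, Cd68, Adgre1 and Csf1r), beside 11.2% of all tested genes. By the sign of the log2 fold change, the latter comparison had 8 of the 10 lower and 2 higher, with 0.51 as the highest value. It had 0 called higher. The summed level of the 10 markers ran from 429 to 678 CPM in Flox, from 509 to 593 in F4MKO and from 272 to 396 in F4MKO+FSTL1. Dendritic cell markers summed to 12.3 to 13.8, 13.3 to 18.8 and 11.1 to 14 CPM, with 2 of 6 lower in F4MKO+FSTL1 than in F4MKO (Siglech and Flt3). Neutrophil markers summed to 8.56 to 9.63, 11.4 to 16.3 and 5.14 to 8.41 CPM, with 1 of 4 tested markers lower (Csf3r), and the neutrophil marker Ly6g had 0 to 2 counts per library. T and NK cell markers summed to 4.92 to 8.25, 5.40 to 8.88 and 2.90 to 9.77 CPM and B cell markers to 8.28 to 13.6, 7.29 to 15.8 and 5.28 to 9.77, and edgeR called none of either list in these comparisons, with 1 T and NK cell marker lower in F4MKO+FSTL1 than in F4MKO at an unadjusted p under 0.05. No marker of these lists was at 0 in all libraries, and edgeR called none in F4MKO+FSTL1 compared with Flox. At an unadjusted p under 0.05, 8 of 10 macrophage, 3 of 5 B cell and 1 of 4 neutrophil markers were lower there. None of 6 dendritic cell and 6 T and NK cell markers was, beside 9.12% of all tested genes. The part of these cells in the integrin differences was not tested.

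Among the integrins that bind laminins, Itgb4 and Itga3 were called lower in F4MKO+FSTL1 than in F4MKO. Itgb4 pairs with the alpha6 chain in hemidesmosomes, the junctions that fix an epithelium to its basement membrane. It had 0.802, 1.15 and 0.710 CPM in Flox, 3.5, 2.14 and 1.76 in F4MKO and 0.421, 0.673 and 0.783 in F4MKO+FSTL1. Each F4MKO library exceeded all libraries of the other groups, and the log2 fold change was -1.98 (SE 0.35, adjusted p = 0.00374) in F4MKO+FSTL1 compared with F4MKO and 1.47 (SE 0.33, adjusted p = 0.07) in F4MKO compared with Flox. Itga6, its partner chain, ranged from 0.892 to 2.13 CPM in Flox, from 2 to 3.82 in F4MKO and from 1.15 to 1.51 in F4MKO+FSTL1, with a log2 fold change of -1.02 (SE 0.33) in F4MKO+FSTL1 compared with F4MKO that just missed the threshold (adjusted p = 0.0501). It passed without Flox replicate 1 (adjusted p = 0.0297), without Flox replicate 3 (adjusted p = 0.0464) and without F4MKO replicate 3 (adjusted p = 0.0306).

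Itga3, another laminin receptor chain, had 9.94, 9.79 and 8.03 CPM in Flox, 18.4, 12.6 and 10.5 in F4MKO and 9.77, 9.37 and 8.20 in F4MKO+FSTL1. Its log2 fold change of -0.60 (SE 0.19, adjusted p = 0.0437) in F4MKO+FSTL1 compared with F4MKO lay close to the fold threshold. Without F4MKO replicate 1 it was -0.34 (adjusted p = 0.181), and the call was also lost without Flox replicate 1 or 2, F4MKO replicate 2 or any F4MKO+FSTL1 replicate, with an adjusted p from 0.0531 to 0.116. It was lost as well with the 6 libraries alone (adjusted p = 0.0636), with the length and GC trend removed (log2 fold change -0.39) and with the replicate block, where the log2 fold change of -0.58 lay under the fold threshold. Itga7, the laminin receptor chain best known from muscle, overlapped between all groups, with 9.58 to 11.9 CPM in Flox, 8.03 to 11 in F4MKO and 9.16 to 13.4 in F4MKO+FSTL1.

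Of the receptors for Arg-Gly-Asp proteins, Itga8 was called. Itga8, the nephronectin receptor chain found on mesenchymal cells, had 9.23, 12 and 7.46 CPM in Flox, 18.9, 11.3 and 12.8 in F4MKO and 6.96, 5.91 and 4.49 in F4MKO+FSTL1. Flox and F4MKO overlapped, whereas all F4MKO+FSTL1 libraries were under all others, with a log2 fold change of -1.31 (SE 0.24, adjusted p = 0.00411) compared with F4MKO. Itgav, Itgb5 and Itga5 had an adjusted p under 0.05 in the same comparison but a fold change under 1.5. Itgav, which binds vitronectin and latent TGF-beta, ranged from 20.8 to 26.7 CPM in F4MKO and from 15.4 to 17.9 in F4MKO+FSTL1 (log2 fold change -0.49, SE 0.12, adjusted p = 0.0147). Itgb5, the highest of this class per kb, ranged from 85.1 to 104 and from 67.9 to 71.6 CPM (log2 fold change -0.42, SE 0.10, adjusted p = 0.0124). Itga5 ranged from 26.5 to 40.5 and from 19.3 to 25.7 CPM (log2 fold change -0.56, SE 0.16, adjusted p = 0.0299), close to the fold threshold, and was called without F4MKO replicate 3 (log2 fold change -0.70) or F4MKO+FSTL1 replicate 2 (-0.67). Itgb3 ranged from 1.87 to 4.48 CPM over all libraries and the groups overlapped.

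Itga9, which binds tenascin-C, osteopontin and VCAM-1, had 17.5, 17.9 and 19.5 CPM in Flox, 24.2, 22.2 and 20.1 in F4MKO and 13.7, 12.7 and 13.2 in F4MKO+FSTL1. The 3 groups did not overlap, and the spread within each was small. The log2 fold change was -0.75 (SE 0.10, adjusted p = 0.00154) in F4MKO+FSTL1 compared with F4MKO, 0.27 (SE 0.10, adjusted p = 0.212) in F4MKO compared with Flox and -0.47 (SE 0.10, adjusted p = 0.101) in F4MKO+FSTL1 compared with Flox. Itgb1, the partner of Itga9 and of most matrix receptor chains, moved little, with 158 to 169 CPM in Flox, 173 to 185 in F4MKO and 153 to 162 in F4MKO+FSTL1. Its log2 fold change was -0.16 (SE 0.09, adjusted p = 0.22) in F4MKO+FSTL1 compared with F4MKO, although these groups did not overlap.

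The collagen receptor chains were not called. Itga1, the highest of them per kb, ranged from 10.5 to 15.4 CPM over all libraries and Itga10 from 1.64 to 3.17, and neither separated the groups or had an unadjusted p under 0.05 in any comparison. Itga2b, the alpha chain of the platelet fibrinogen receptor, ranged from 3.79 to 4.26 CPM in Flox, from 3.01 to 3.39 in F4MKO and from 2.66 to 3.29 in F4MKO+FSTL1. Flox was above both other groups without overlap, and neither difference passed (log2 fold change -0.32, adjusted p = 0.346, and -0.47, adjusted p = 0.252). The 6 other platelet and megakaryocyte markers measured, among them Pf4 and Ppbp, had 0 to 7 counts per library and none could be tested, so that Itga2b was counted where the defining genes of platelets were near 0.

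Lamc3 showed the largest log2 fold change of the 30 tested subunits in F4MKO compared with Flox, and a similar one in the opposite direction in F4MKO+FSTL1 compared with F4MKO. Its gene lies at chr2:31887291-31946539 (GRCm38), and Gm13441 on the opposite strand covers 6.27% of its exon bases. It had 1.69, 3.20 and 1.20 CPM in Flox, 9.66, 6.37 and 6.47 in F4MKO and 2.10, 1.49 and 1.67 in F4MKO+FSTL1. The F4MKO libraries lay above all others by a wide gap and the other groups overlapped. The log2 fold change of Lamc3 was 1.88 (SE 0.31, adjusted p = 0.0404) in F4MKO compared with Flox and -2.09 (SE 0.32, adjusted p = 0.00206) in F4MKO+FSTL1 compared with F4MKO.

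The call of Lamc3 against Flox sat at the threshold. Without F4MKO replicate 1 its log2 fold change was 1.65 (adjusted p = 0.149). The call was also lost without F4MKO replicate 2, any Flox or any F4MKO+FSTL1 replicate, with an adjusted p from 0.0502 to 0.132 and a log2 fold change from 1.61 to 2.37. Fitted on the 6 libraries of these groups alone, the adjusted p was 0.0631, and with glmTreat at a fold of 1.5 it was 0.214. Its call in F4MKO+FSTL1 compared with F4MKO held under all 18 alternatives tried.

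Lamc1, the gamma chain of most laminins, lies at chr1:153218922-153332786 (GRCm38). It had 19.5, 20.8 and 20.5 CPM in Flox, 31.8, 25.8 and 25.3 in F4MKO and 17.8, 16.7 and 15 in F4MKO+FSTL1, so that the 3 groups were apart. It was lower in F4MKO+FSTL1 than in F4MKO (log2 fold change -0.74, SE 0.11, adjusted p = 0.00207), and 0.45 higher on the log2 scale in F4MKO than in Flox without passing (SE 0.11, adjusted p = 0.0978).

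Of the 5 laminin alpha chains, 2 were called lower and 1 higher in F4MKO+FSTL1 than in F4MKO. Of all tested genes, 11.2% were called lower there and 3.21% higher. Lama5, the alpha chain of laminin-511, had 3.97, 4.79 and 4.75 CPM in Flox, 11.7, 8.84 and 6.63 in F4MKO and 3.13, 2.84 and 3.76 in F4MKO+FSTL1. The 3 groups did not overlap, and the log2 fold change was -1.48 (SE 0.21, adjusted p = 0.00173) in F4MKO+FSTL1 compared with F4MKO and 1.01 (SE 0.21, adjusted p = 0.061) in F4MKO compared with Flox, where it was called without F4MKO replicate 3 (adjusted p = 0.0342). Lama2, the alpha chain of muscle and mesenchymal laminin, had 3.61, 4.59 and 2.84 CPM in Flox, 7.39, 4.69 and 4.83 in F4MKO and 2.43, 1.73 and 2.87 in F4MKO+FSTL1. The log2 fold change of Lama2 was -1.27 (SE 0.26, adjusted p = 0.00704) in F4MKO+FSTL1 compared with F4MKO.

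Lama3, the alpha chain of laminin-332, moved the other way. It had 4.19, 4.92 and 3.55 CPM in Flox, 2.44, 2.22 and 2.67 in F4MKO and 4.30, 6.34 and 4.80 in F4MKO+FSTL1, so that the F4MKO libraries were the lowest. The log2 fold change was 1.07 (SE 0.20, adjusted p = 0.00462) in F4MKO+FSTL1 compared with F4MKO and -0.79 (SE 0.20, adjusted p = 0.103) in F4MKO compared with Flox, where DESeq2 called it lower (adjusted p = 0.038). Lama1, the alpha chain of laminin-111 and the highest alpha chain per kb in Flox, ranged from 2.98 to 6.10 CPM over all libraries, and Lama4, the vascular alpha chain, from 3.84 to 6.69. Neither was called.

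Of the 3 beta chains, 2 were called lower in F4MKO+FSTL1 than in F4MKO, where 11.2% of all tested genes were. Lamb1, the beta chain of most laminins, had 12.7, 12.8 and 13.0 CPM in Flox, 16.1, 12 and 15.2 in F4MKO and 11.1, 8.17 and 7.05 in F4MKO+FSTL1 (log2 fold change -0.72, SE 0.17, adjusted p = 0.0121 compared with F4MKO). Lamb2, of neuromuscular and vascular laminins, had 8.16, 6.10 and 7.32 CPM in Flox, 12.2, 8.67 and 8.94 in F4MKO and 6.82, 6.34 and 5.69 in F4MKO+FSTL1 (log2 fold change -0.66, SE 0.17, adjusted p = 0.0183 compared with F4MKO). Both calls were lost without F4MKO replicate 1 (adjusted p = 0.0568 for Lamb1 and 0.0812 for Lamb2), without F4MKO+FSTL1 replicate 2 (0.0551 and 0.0611) and without F4MKO+FSTL1 replicate 3, where Lamb1 fell under the fold threshold at a log2 fold change of -0.58 and Lamb2 had an adjusted p of 0.0547. With the length and GC trend removed, both fell under the fold threshold, at a log2 fold change of -0.52 for Lamb1 and -0.45 for Lamb2. Lamb3, the beta chain of laminin-332, ranged from 3.60 to 7.62 CPM over all libraries and was not called (log2 fold change 0.35, SE 0.26, adjusted p = 0.362 in F4MKO+FSTL1 compared with F4MKO).

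**Figure D4:**
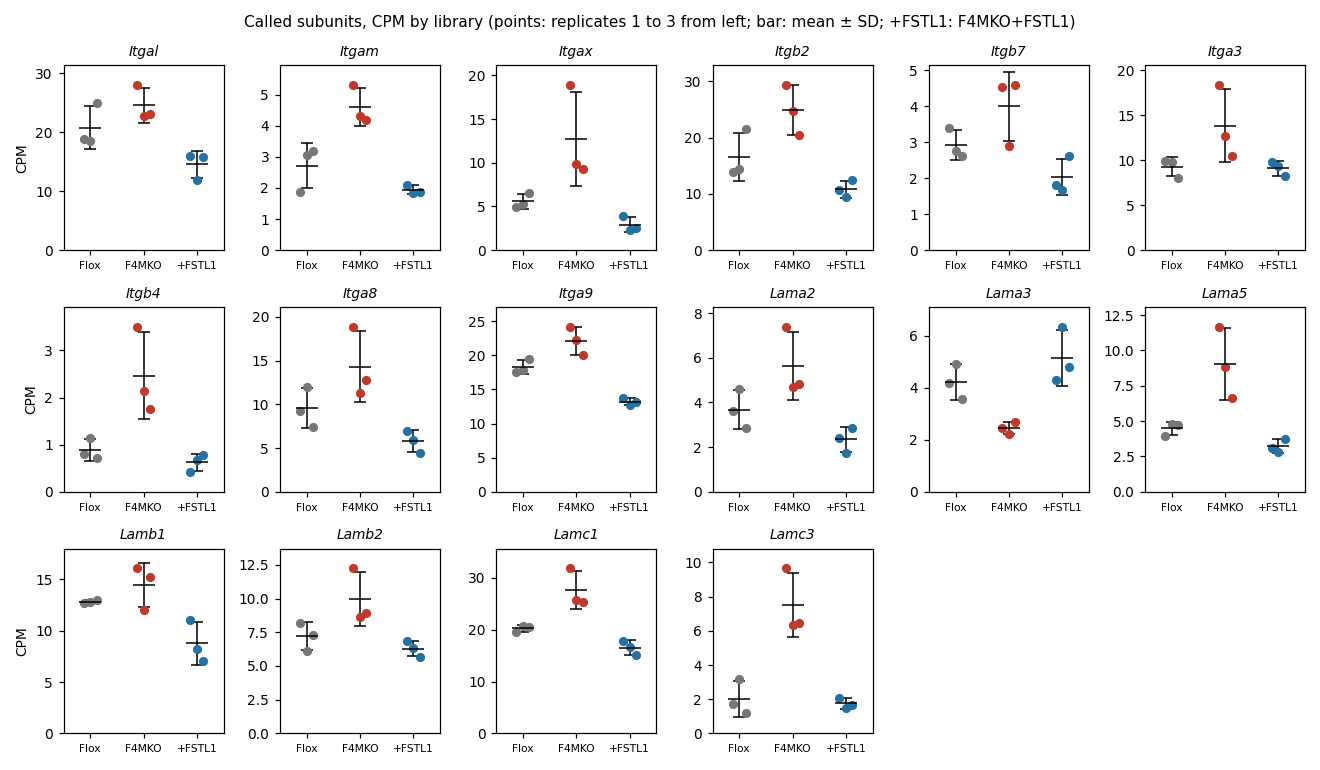
CPM of the 16 subunits called in at least 1 comparison, 1 point per library (replicates 1 to 3 from left), with the mean and SD of each group; each axis starts at 0. F4MKO has the highest mean in every panel except Lama3, where it has the lowest.

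The make-up of the laminin chain pools differed accordingly, taken as a share of summed CPM per kb. Of the sum of Lamc1 and Lamc3, Lamc3 made up 11.7% ± 5.08 in Flox, 26.7% ± 2.19 in F4MKO and 12.6% ± 1.56 in F4MKO+FSTL1 (SD, n = 3). The F4MKO libraries did not overlap with either other group in this share, and Flox and F4MKO+FSTL1 overlapped. Among the alpha chains, Lama5 made up 20.7% ± 2.43, 34.4% ± 5.34 and 17.0% ± 3.17. Lama3 made up 20.4% ± 1.57, 10.1% ± 1.85 and 28.5% ± 5.80, and all 3 groups were apart. Among the beta chains, Lamb1 made up 40.2% ± 4.14, 38.2% ± 2.64 and 31.4% ± 2.31 and Lamb3 23.3% ± 3.45, 19.0% ± 3.80 and 31.3% ± 5.56. The F4MKO+FSTL1 libraries were under all others for Lamb1, and for Lamb3 they were above all F4MKO libraries and overlapped with Flox. A share of transcripts does not say how many trimers were assembled.

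**Figure D5:**
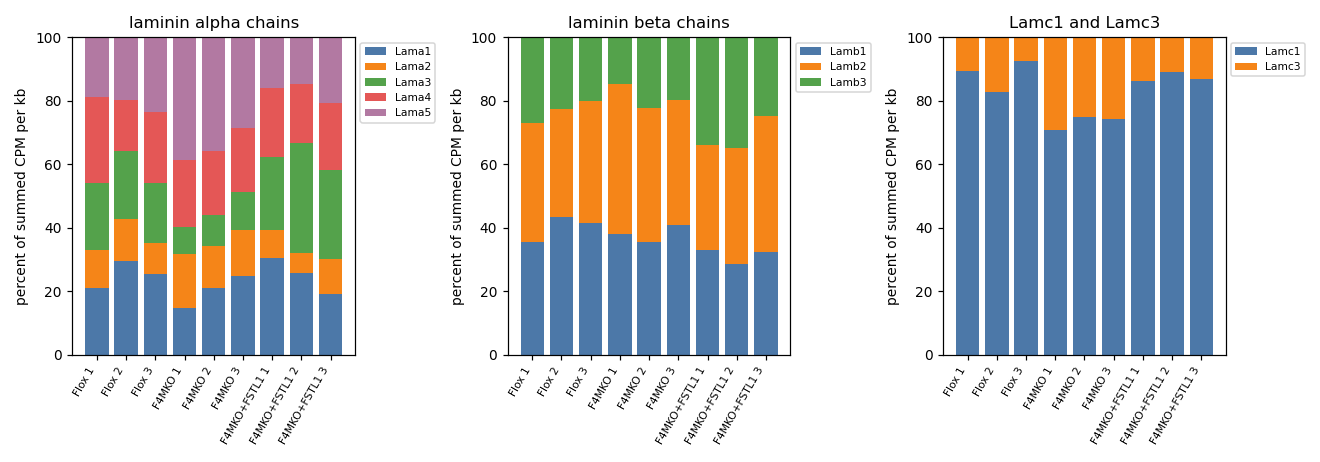
Share of each laminin alpha chain, of each beta chain, and of Lamc1 and Lamc3 in the summed CPM per kb of the set, as percent, 1 bar per library. The Lamc3 segment is 25.1% to 29.2% in F4MKO libraries and 7.34% to 17.3% elsewhere, and the Lama3 segment is narrowest in F4MKO.

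Some markers of bile duct and stellate cells moved in the same direction as Itgb4, Itga8 and the 6 laminin subunits called lower in F4MKO+FSTL1 than in F4MKO. Lama3 moved the other way. Of 8 cholangiocyte markers, 6 could be tested, and 2 of them (Spp1 and Epcam) were called higher in F4MKO than in Flox, where 0.202% of all tested genes were. In F4MKO+FSTL1 compared with F4MKO, 4 (Spp1, Epcam, Krt7 and Krt19) were called lower, where 11.2% of all tested genes were. The 8 markers summed to 69.9 to 108 CPM in Flox, 181 to 458 in F4MKO and 54.2 to 70.2 in F4MKO+FSTL1, with the highest value in F4MKO replicate 1. Most of this sum was Spp1 alone, with means of 59.9, 248 and 39.7 CPM. Epcam had means of 2.01, 8.11 and 1.36 CPM, and Krt19 had 2.35, 4.83 and 1.32. The defining gene Cftr had 1 to 4 counts in Flox, 5 to 42 in F4MKO and 0 to 4 in F4MKO+FSTL1. Of 10 stellate cell markers, 0 were called by edgeR in F4MKO compared with Flox, where 3 were higher at an unadjusted p under 0.05, and 6 were lower in F4MKO+FSTL1 than in F4MKO, with summed levels of 425 to 493, 551 to 695 and 284 to 390 CPM. None of 10 endothelial markers was called by edgeR in either comparison, with summed levels of 369 to 446, 300 to 373 and 328 to 400 CPM, where 2 were lower in F4MKO than in Flox and 2 higher in F4MKO+FSTL1 than in F4MKO at an unadjusted p under 0.05. Of 4 smooth muscle markers tested, none was called and 1 was lower in F4MKO+FSTL1 than in F4MKO at an unadjusted p under 0.05. Of 8 hepatocyte markers, Cyp2e1 and Serpina1a were called higher in F4MKO+FSTL1 than in F4MKO, where 3.21% of all tested genes were. There, 5 of the 8 were above and 3 under a log2 fold change of 0. In F4MKO compared with Flox none of the 8 was called by edgeR and 2 were lower at an unadjusted p under 0.05. Their summed level was 96290 to 101040 CPM in Flox and 86223 to 105900 in F4MKO+FSTL1, and in F4MKO it was 67838 in replicate 1 and 100170 and 98304 in the others, so that F4MKO replicate 1 was the lowest of the 9 libraries. Of 8 cell cycle genes, 7 were called lower in F4MKO+FSTL1 than in F4MKO, beside 11.2% of all tested genes. The 8 genes summed to 20.8 to 33.4 CPM in Flox, 38.8 to 47.0 in F4MKO and 9.91 to 14 in F4MKO+FSTL1. In F4MKO+FSTL1 compared with Flox, 1 of the 8 (Ccnb1) was called lower, beside 0.00695% of all tested genes called in either direction. At an unadjusted p under 0.05, all 8 were lower there, beside 9.12% of all tested genes. So were 6 of 10 stellate cell, 1 of 6 cholangiocyte, 0 of 10 endothelial and 0 of 8 hepatocyte markers, with 1 hepatocyte marker higher. Without F4MKO replicate 1 or any 1 Flox replicate, no gene at all was called in F4MKO compared with Flox, Spp1 and Epcam included. The part of these cells in the laminin and integrin differences was not tested.

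The promoters of Lama5, Lama2 and Itgam are shown because these genes fell together in F4MKO+FSTL1 compared with F4MKO and no annotated exon lies in the 250 bases before their start. The sequences are from RefSeq (GRCm38.p6), read 5′ to 3′ on the strand of the gene and ending at the base before its start, and capitals mark GAGGAA, a core of the PU.1 site, and GGGCGG, a core of the Sp1 site, on either strand. Lama5 lies on the minus strand at chr2:180225860-180226109, Lama2 on the minus strand at chr10:27616943-27617192 and Itgam on the plus strand at chr7:128062390-128062639. The RefSeq start used for Lama2 lies inside the GENCODE gene.
Lama5: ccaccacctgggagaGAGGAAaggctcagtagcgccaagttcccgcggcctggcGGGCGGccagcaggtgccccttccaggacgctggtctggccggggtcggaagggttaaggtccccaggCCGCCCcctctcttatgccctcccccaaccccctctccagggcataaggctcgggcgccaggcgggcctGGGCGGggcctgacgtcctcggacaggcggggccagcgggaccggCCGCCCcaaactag
Lama2: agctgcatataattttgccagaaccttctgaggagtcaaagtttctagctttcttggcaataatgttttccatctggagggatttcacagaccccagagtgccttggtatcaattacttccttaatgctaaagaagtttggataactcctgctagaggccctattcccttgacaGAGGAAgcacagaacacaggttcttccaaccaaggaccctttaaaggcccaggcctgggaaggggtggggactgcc
Itgam: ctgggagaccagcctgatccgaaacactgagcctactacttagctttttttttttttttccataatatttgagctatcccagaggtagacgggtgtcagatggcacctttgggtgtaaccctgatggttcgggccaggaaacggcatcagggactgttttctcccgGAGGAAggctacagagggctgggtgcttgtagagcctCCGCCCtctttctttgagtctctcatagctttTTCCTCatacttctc

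GAGGAA occurred 78 and 9 bases before the start of Itgam, 70 bases before that of Lama2 and 229 bases before that of Lama5. GGGCGG occurred at 4 places in the Lama5 window, once in that of Itgam and not in that of Lama2. Of all 32851 windows of this length, 23.3% held GAGGAA and 32.7% held GGGCGG. The table had windows for 23 of the 36 subunits, of which 11 held GAGGAA and 8 held GGGCGG. Of the other motifs, TGANTCA, a core of the AP-1 site, was in 1 of the 23, where 6.75% of all windows held it, GGAATG, a core of the TEAD site, in 2, where 12.6% did, and TATAAA in 0, where 12.4% did. The motifs do not overlap in the printed windows, and a match of letters is not a bound site.

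Of the proteins that integrins bind other than laminins, 18 of a list of 20 were tested. Spp1 (osteopontin), which is also a cholangiocyte marker, was the only one called in F4MKO compared with Flox, where 0.202% of all tested genes were called higher. It had 59.9 ± 18.0 CPM in Flox, 248 ± 133 in F4MKO and 39.7 ± 8.59 in F4MKO+FSTL1 (SD, n = 3). Of the 18, 8 were lower and 0 higher in F4MKO+FSTL1 than in F4MKO, where 11.2% of all tested genes were called lower. The 5 with the largest change were Spp1 (log2 fold change -2.64), Thbs1 (thrombospondin-1, -1.65), Vcam1 (the endothelial ligand of VLA-4, -1.57), Tnc (tenascin-C, -1.27) and Cdh1 (E-cadherin, -1.13). Spp1, Vcam1 and Tnc are ligands of the alpha9 chain, whose gene Itga9 was lower in the same comparison. Over the list, the log2 fold change had a median of -0.56 there.

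Of 14 other components of the basement membrane, 13 were tested. Nid1, which links laminin to collagen IV, was the only one called higher in F4MKO than in Flox, where 0.202% of all tested genes were. It had 19.9 ± 1.82 CPM in Flox, 43.1 ± 9.86 in F4MKO and 14.1 ± 2.52 in F4MKO+FSTL1 (SD, n = 3). The calls of Nid1 and Spp1 were lost without F4MKO replicate 1 or any Flox replicate, with the 6 libraries alone and with glmTreat at a fold of 1.5. That of Nid1 was also lost without F4MKO replicate 2, and that of Spp1 without F4MKO+FSTL1 replicate 1 or 2. In F4MKO+FSTL1 compared with F4MKO, 7 were called lower and 0 higher, where 11.2% and 3.21% of all tested genes were. They were led by the collagen IV chain Col4a5 (log2 fold change -1.94), Nid1 (-1.61), Col4a1 (-1.23), Nid2 (-1.06) and Col4a2 (-1.01). Over the list, the median log2 fold change was -0.91 there.

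Of 29 genes of the adhesion machinery inside the cell, 5 were lower and 0 higher in F4MKO+FSTL1 than in F4MKO, not far from the 11.2% of all tested genes called lower, with a median log2 fold change of -0.14. They were Fermt1, the kindlin of epithelia (log2 fold change -1.99), the kinase Src (-1.35) and 3 genes known from blood cells, Apbb1ip (-1.26), Parvg (-1.20) and Fermt3 (-1.04). None of this list was called in F4MKO compared with Flox by edgeR, where 6 were higher at an unadjusted p under 0.05, as were 9.35% of all tested genes, and DESeq2 called 2. None of the 3 lists had a gene called in F4MKO+FSTL1 compared with Flox by edgeR, where DESeq2 called 2 ligands. At an unadjusted p under 0.05, 3 of 29 genes of the adhesion machinery, 7 of 18 ligands and 6 of 13 basement membrane genes were lower there, beside 9.12% of all tested genes, which the adhesion machinery was close to.

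The 6 subunits with too few counts to test were Itgad, Itgae, Itga2, Itga11, Itgb6 and Itgb8. Itgb6, an epithelial partner of the alphaV chain that activates latent TGF-beta, had 4, 0 and 0 counts in Flox, 19, 5 and 8 in F4MKO and 1, 1 and 1 in F4MKO+FSTL1. The summed counts of Itgb6, scaled by library size, were 7.19 times as high in F4MKO as in Flox (95% exact interval 2.55 to 28.0) and 8.48 times as high in F4MKO as in F4MKO+FSTL1 (2.65 to 43.3), and F4MKO was above both other groups in every library. Without F4MKO replicate 1 these ratios were 4.61 (1.42 to 19.4) and 5.43 (1.49 to 29.7). All 4 Flox counts were in replicate 1, so that no ratio to Flox could be formed without it, and without Flox replicate 2 that ratio was 4.66 (1.65 to 18.1). Itga2, a collagen receptor chain, had 3, 15 and 4 counts in Flox, 17, 6 and 10 in F4MKO and 1, 3 and 3 in F4MKO+FSTL1, a ratio of 3.75 between the last groups (1.63 to 10.04). Itga11, a collagen receptor chain of fibroblasts, had 4 to 25 counts per library, and Itgae, the alphaE chain, had 0 to 11. Itgb8 and Itgad had 0 counts in all F4MKO+FSTL1 libraries, where 0 allows up to 3 counts per library, and 0 to 4 in the others. These intervals cover counting error only and not the spread between mice.

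Some of these genes share exon sequence with others in the GENCODE annotation of GRCm38. Gene model Gm49368 covers 68.7% of the exon bases of Itgam and Gm42957 covers 33.5% of those of Itga10, both on the same strand, so that reads of these subunits could be lost or moved, depending on an annotation and counting rule that are not given in the sources used here. Genes on the opposite strand overlap a smaller share of Itga4 (8.04%), Itgb4 (7.66%), Lamc3 (6.27%), Itgav (5.90%), Itga8 (5.05%), Lama2 (3.86%) and Lama3 (1.83%). The use of strand in counting is not given either, and without it reads of such pairs cannot be told apart.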

How the data were processed

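Total RNA of whole liver from 9 mice was sequenced on a BGIseq500 as 150 bp paired-end reads, and the authors deposited 1 table of raw read counts per gene with a column for each library. According to the submitters' processing notes, reads were trimmed with Trim Galore 0.6.7, aligned to mm10 with HISAT2 2.2.1 and counted with featureCounts 2.0.1. The annotation and the handling of strand and of reads with several matches are not given in the sources used here. Groups came from the genotype labels, WT being taken as Flox.

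Counts of all 9 libraries were fitted together with edgeR 4.0.16 (quasi-likelihood) in R 4.3.3 after filterByExpr (minimum count 10, which is 0.432 CPM in the median library, in 3 libraries, and a minimum total of 15) and TMM scaling (factors 0.927 to 1.17). P-values were adjusted by Benjamini and Hochberg over 14379 genes, and the 3 pairwise comparisons were each read at an adjusted p under 0.05 and a fold change above 1.5. Exon lengths and gene coordinates were those of GENCODE vM21 (GRCm38), and promoter windows those of RefSeq (GRCm38.p6), searched on both strands. Of the genes matching the symbols, 1 is not reported here and is left out of all counts over subunits. The filter passed no subunit through the F4MKO libraries alone. Intervals for subunits with few counts are exact conditional binomial intervals of summed counts. The fits were tested on simulated counts.

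Alternatives were DESeq2 1.42.0, its size factors in edgeR, no filter, the 6 libraries compared, a replicate block, no fold threshold, glmTreat at a fold of 1.5, removal of a trend in length and GC content (13700 genes, 95.3% of those tested, had both) and each library left out. In the main fit, p-values set a difference between groups against a spread between livers that was estimated from all 9 libraries together. The members, roles and gene lists were chosen with earlier results of these data known. Members called in any comparison are given in every library and others by range and counts, and of the 3 pathway lists up to 5 called genes with the largest change are named.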

Additional observations from a re-analysis of the deposited data

How the results depend on the processing

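In F4MKO+FSTL1 compared with F4MKO, 7 of the 16 called subunits (Itgam, Itgax, Itgb2, Itgb4, Itga8, Lama5 and Lamc3) were called under all 18 alternatives, and in F4MKO compared with Flox, Lamc3 was called under 8. Counts of calls without 1 library ran, in F4MKO compared with Flox, from 0 to 0 for integrins, 0 to 2 for laminins, 0 to 0 for the adhesion machinery, 0 to 1 for the ligands and 0 to 3 for the basement membrane partners. For F4MKO+FSTL1 against F4MKO they ran from 7 to 11, 5 to 7, 4 to 6, 6 to 9 and 6 to 8, and in F4MKO+FSTL1 compared with Flox all were 0 except the ligands at 0 to 1.

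In F4MKO compared with Flox, DESeq2 and the fit with no filter both called 2 integrins, 3 laminins, 2 adhesion machinery genes, 2 ligands and 4 basement membrane partners. With the 6 libraries alone, and in glmTreat, which tests whether a fold exceeds 1.5, 0 laminins, 0 ligands and 0 basement membrane partners were called. For F4MKO+FSTL1 against F4MKO, glmTreat called 5 integrins, 2 laminins, 2 adhesion machinery genes and 5 ligands, and removal of the length and GC trend left 4 laminins. For F4MKO+FSTL1 against Flox, the fit with no filter called 2 integrins and 2 ligands, and DESeq2 called 2 ligands. Over all genes, F4MKO compared with Flox gave 29 higher and 10 lower, with DESeq2 254 and 84, with no filter 337 and 141 and without F4MKO replicate 1 or any 1 Flox replicate none. Among subunits called in F4MKO+FSTL1 compared with F4MKO, the fold changes of Itgal, Itga3, Itga9, Lamb1, Lamb2 and Lamc1 fell under 1.5 with the length and GC trend removed. The cause of these changes was not tested. Leaving out libraries for the count ratios of Itgb6 and Itga2 was chosen after seeing the data, and the ratio for Itga2 ran from 2.85 to 4.51.

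Libraries with the same replicate number did not deviate together in every pair, with correlations from -0.099 to 0.304, and 5 of 9 libraries correlated best with their own number. These values do not settle whether such libraries belong together. The main fit has no block because the study's methods name no covariate. With the replicate block, 8 integrins and 7 laminins were called in F4MKO+FSTL1 compared with F4MKO, and 0 and 1 in F4MKO compared with Flox, where 2 adhesion machinery genes, 2 ligands and 3 basement membrane partners were called and, over all genes, 105 higher and 29 lower. With the block and the length and GC trend removed together, the counts were 2 adhesion machinery genes and 2 basement membrane partners in F4MKO compared with Flox and 4 laminins in F4MKO+FSTL1 compared with F4MKO.

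The subunits whose direction turned were not called in that comparison. With the length and GC trend removed, without and with the block, the log2 fold change became -0.085 and -0.11 for Itgb3 in F4MKO compared with Flox (-0.013 with the block alone), 0.057 and 0.056 for Itga2b and 0.13 and 0.13 for Lama1 in F4MKO+FSTL1 compared with F4MKO, and 0.083 and 0.084 for Itga3 and 0.027 and 0.027 for Itgb1 in F4MKO+FSTL1 compared with Flox. Without 1 library, uncalled log2 fold changes in F4MKO compared with Flox ran from -0.31 to 0.29 for Itgb3, -0.34 to 0.018 for Itga10, -0.016 to 0.29 for Itga5, -0.28 to 0.093 for Lama1 and -0.22 to 0.11 for Lamb3. For F4MKO+FSTL1 against F4MKO they ran from -0.53 to 0.065 for Itgb3 and -0.25 to 0.12 for Lama1. For F4MKO+FSTL1 against Flox they ran from -0.47 to 0.0026 for Itga4, -0.14 to 0.014 for Itga1, -0.11 to 0.053 for Itga3, -0.45 to 0.10 for Itga6, -0.088 to 0.19 for Itga7, -0.39 to 0.026 for Lama1 and -0.48 to 0.28 for Lamc3.

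With 3 livers per group and 1 dominant library in F4MKO, small differences such as that of Itgb1 could not be resolved, and at the depth of these libraries 6 subunits could not be tested.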
